A study of Mus musculus with 8 samples.

Results

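Genes for the uptake of dying cells and modified lipoproteins were followed in peritoneal macrophages of Men1 knockout mice. The set holds 10 genes picked by name, out of 54532 gene rows in the count table. They are the receptors Mertk and Axl, the ligands Gas6 and Pros1 of their receptor family, and the bridging protein gene Mfge8. The others are the scavenger receptors Cd36, Msr1, Marco and Stab1, and the lipid receptor Trem2. RNA was sequenced from cells of the mouse peritoneal cavity injected beforehand with thioglycollate broth, which recruits inflammatory cells, in every group. Titles give each library a letter (M or F, not spelled out), a genotype and an animal number, which made 3 M_KO libraries (M_KO_5944, M_KO_5645 and M_KO_5642), 3 M_WT libraries (M_WT_5643, M_WT_6258 and M_WT_6255), 1 F_KO library (F_KO_5639) and 1 F_WT library (F_WT_5638). KO stands for a knockout of Men1, the gene of menin, a scaffold of histone H3K4 methyltransferase complexes, and WT for wild type. Values of several libraries are given in this order throughout. The labels used here name no strain, age, promoter or Cre driver. The p-values set the difference between genotypes against the spread between libraries of the same genotype.

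Efferocytosis is the engulfment of apoptotic cells, which expose phosphatidylserine on their surface. The TAM family of receptor tyrosine kinases, which holds MERTK and AXL, sees this lipid through the soluble ligands GAS6 and protein S (Pros1). MFGE8 links phosphatidylserine to alpha v integrins. Scavenger receptors bind oxidised or acetylated lipoproteins, bacteria and dying cells directly, and resident and inflammatory macrophages of the peritoneal cavity are a classical source of both receptor kinds.

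Men1 transcript was present in the knockouts but lower in all 4 KO libraries than in all 4 WT libraries, at 8.15, 6.45 and 8.42 CPM (read counts scaled to library size with TMM) in M_KO and 25.7, 17.1 and 21.4 CPM in M_WT, and at 11.7 CPM in F_KO and 18.1 CPM in F_WT. EdgeR's quasi-likelihood test over the M libraries did not call this difference (log2 fold change -1.49, SE 0.21, edgeR adjusted p = 0.284), whereas DESeq2 did (DESeq2 adjusted p = 4.45e-06). Total counts ran from 18206427 to 22853583 per library. Of 7 macrophage markers, 6 were at 554 CPM or more in all 8 libraries, and Fcgr1 was at 4.31 to 16.9 CPM. Markers of other cells summed to at most 22.7 CPM for T and NK cells, neutrophils, mast cells and basophils, eosinophils, mesothelial cells, fibroblasts, and endothelial cells and platelets, but B cell markers summed to 128 to 646 CPM. Dendritic cell markers (4 of 8 tested) summed to 13.01 to 16.6 CPM in M_KO and 24.3 to 42.5 CPM in M_WT, without overlap, and to 19.7 CPM in F_KO and 23.3 CPM in F_WT. The lack of overlap rests on Cd209a, at 15.3 CPM in M_WT_6258, 14.5 CPM in M_WT_6255 and 0.15 CPM or less in every other library. The libraries did not group by genotype throughout. Spearman correlations across genes were 0.959 to 0.971 among M_KO libraries, 0.973 to 0.988 among M_WT libraries and 0.949 to 0.984 between M_KO and M_WT. M_WT_6258 and M_WT_6255 were the closest pair of all, but M_WT_5643 had its highest with M_KO_5944 (0.984). M_KO_5642 had its highest with F_WT_5638 (0.979), and 0.969 with M_WT_6255 against 0.966 with M_KO_5944 and 0.959 with M_KO_5645.

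None of the 10 genes passed the test between M_KO and M_WT, given the spread between libraries. All 10 passed the filter on low counts, and edgeR's quasi-likelihood test called 0 of them, against 3 of 13646 genes in all (0.0220% called). At an unadjusted edgeR p under 0.05 there were also 0 members, against 9.56% of all genes. DESeq2 called 0 members, against 1.21% of the genes it tested, and the authors' deposited table calls 0, against 0.553% of its rows. In the authors' DESeq2 comparison Gas6 had an unadjusted p of 0.0173 (adjusted p = 0.514). Fitted values were higher in M_KO for 6 members and lower for 4, with a median log2 fold change of 0.14 beside 0.01 over all tested genes. For Msr1 alone the 3 M_KO values lay apart from the 3 M_WT values, as they did for 16.0% of all tested genes, or 6.95% with M_KO lower. In bulk RNA, fewer cells of a type and less RNA per cell cannot be told apart.

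**Figure D1:**
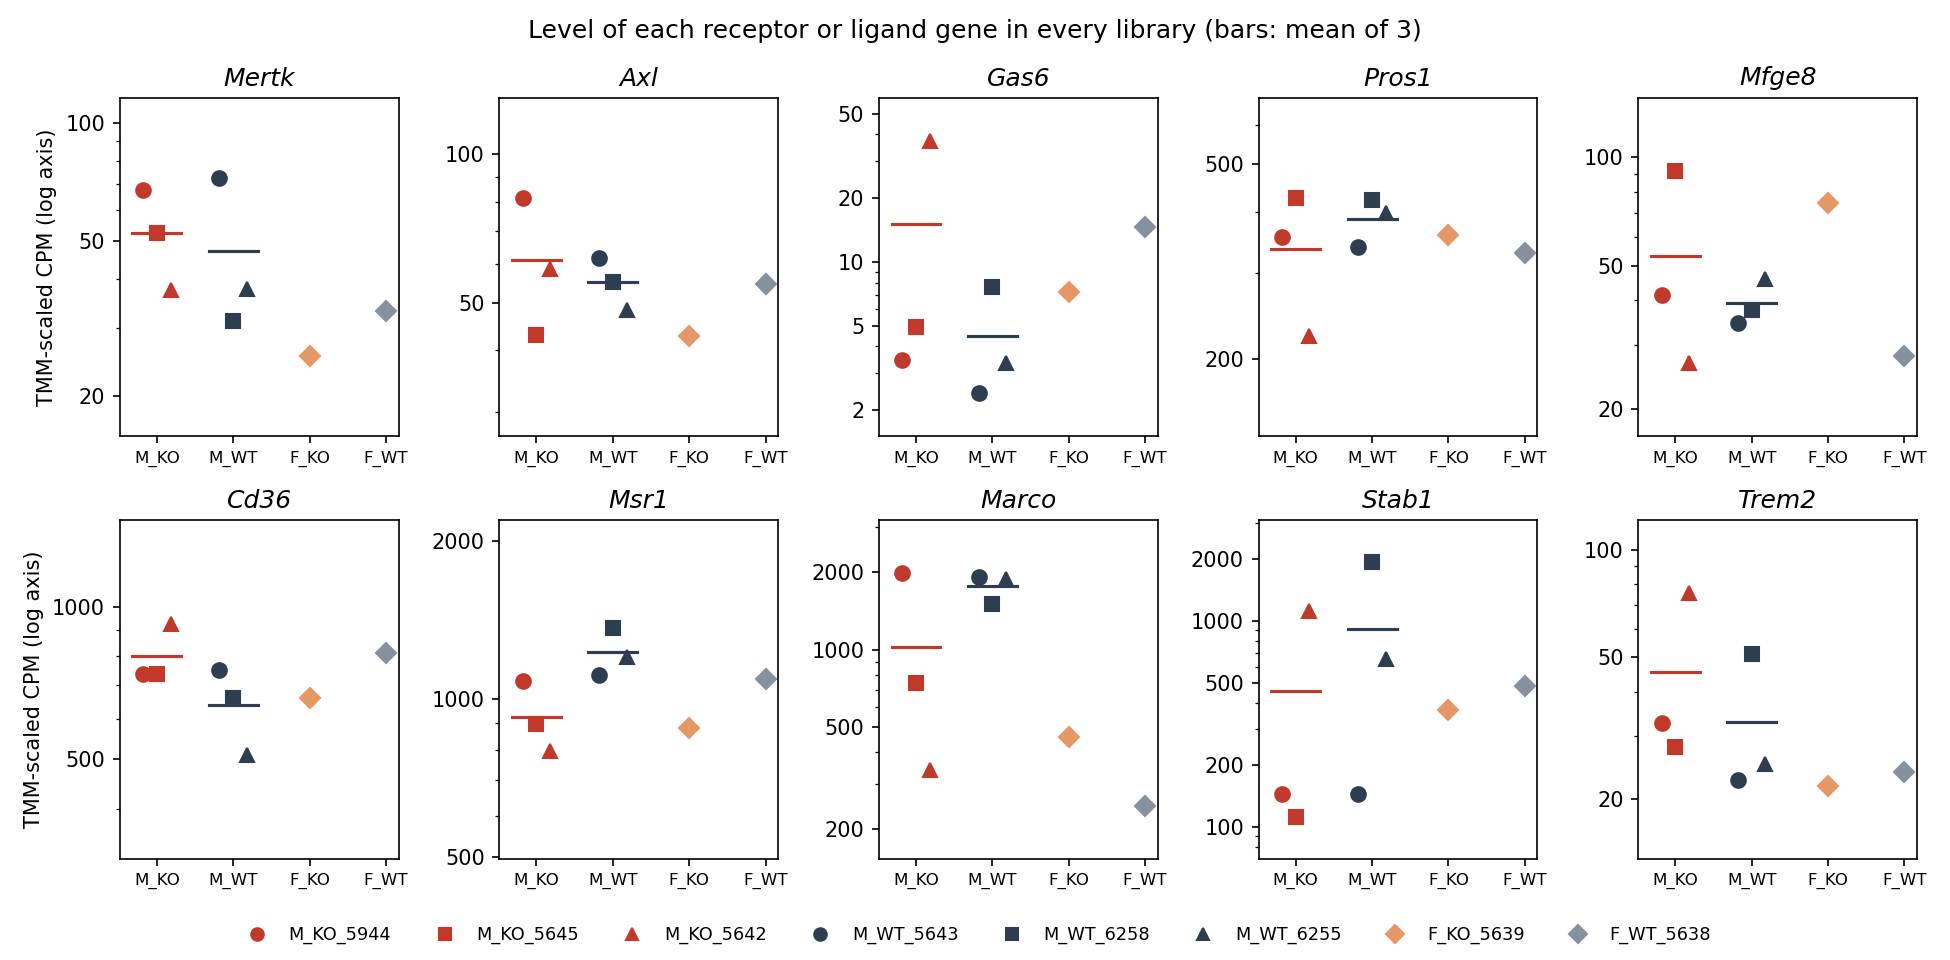
TMM-scaled CPM (log axis) of the 10 genes in every library, with M_KO, M_WT, F_KO and F_WT from left to right in each panel, 1 point per library and a bar at the mean of 3 libraries. Only in the Msr1 panel do the 3 M_KO points, from 795 to 1081 CPM, all lie below the 3 M_WT points, from 1109 to 1368 CPM.

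The levels of the genes, compared per length as FPKM, spanned a wide range. In the order of the M_WT means, Marco was the highest of the 10, with a mean of 529 ± 450 FPKM in M_KO and 916 ± 116 FPKM in M_WT (SD, n = 3 each). Msr1 followed at 144 ± 24.1 FPKM in M_KO and 193 ± 20.6 FPKM in M_WT, and Cd36 at 220 ± 27.9 FPKM in M_KO and 178 ± 35.04 FPKM in M_WT, so that in M_KO the mean of Cd36 was above that of Msr1. Pros1 (94.3 FPKM in M_WT) and Stab1 (88.3 FPKM) came next, then Axl (10.9 FPKM), Mertk (10.9 FPKM), Mfge8 (8.37 FPKM), Trem2 (6.65 FPKM) and Gas6 (1.75 FPKM). Of the 9 neighbouring pairs in this M_WT order, 5 had overlapping library ranges: Msr1 with Cd36, Pros1 with Stab1, Axl with Mertk, Mertk with Mfge8 and Mfge8 with Trem2. The scavenger receptors therefore stood above the TAM receptors in M_WT, with the lowest Stab1 library (14.1 FPKM) inside the range of Mertk (7.20 to 16.8 FPKM).

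Mertk (ENSMUSG00000014361, chromosome 2, 128698956 to 128802894, plus strand, GRCm38), the TAM receptor most tied to clearance by macrophages, was at 67.4, 52.3 and 37.3 CPM in M_KO and 72.4, 31.2 and 37.6 CPM in M_WT. The groups overlapped throughout, and the highest and lowest M libraries were both wild type. This gave a log2 fold change of 0.15 (SE 0.36, 95% interval -0.71 to 1.01), with an edgeR adjusted p of 0.914. Axl (ENSMUSG00000002602, chromosome 7, 25757273 to 25788705, minus strand), a TAM receptor that binds GAS6, was at 81.4, 43.0 and 58.4 CPM in M_KO and 61.7, 55.2 and 48.4 CPM in M_WT. M_KO held both its highest and its lowest M library, and the log2 fold change was 0.14 (SE 0.24, 95% interval -0.43 to 0.71, edgeR adjusted p = 0.877). The upper ends of these intervals lie at 2.01-fold for Mertk and 1.63-fold for Axl. The ratio of Mertk to Axl per length was 0.962, 1.41 and 0.742 in M_KO, and 1.36, 0.657 and 0.903 in M_WT. Tyro3, the remaining TAM receptor, was at 0 to 0.56 CPM and did not pass the filter.

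Of the TAM ligands, Pros1 was the abundant one. Pros1 (ENSMUSG00000022912, chromosome 16, 62854307 to 62929346, plus strand), which encodes protein S, was at 356, 427 and 223 CPM in M_KO and 338, 423 and 398 CPM in M_WT. M_KO_5642 was lowest, and the others lay within the M_WT range or just above it. Its log2 fold change was -0.21 (SE 0.25, 95% interval -0.80 to 0.38, edgeR adjusted p = 0.820).

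Gas6 (ENSMUSG00000031451, chromosome 8, 13465374 to 13494490, minus strand) was at 3.45, 4.92 and 37.1 CPM in M_KO and 2.41, 7.67 and 3.34 CPM in M_WT. One library, M_KO_5642 with 930 counts, stood above all others, which had 49 to 338 counts. The log2 fold change was 1.75 (SE 0.96, 95% interval -0.53 to 4.03, edgeR adjusted p = 0.592), and without M_KO_5642 it was -0.10 (edgeR adjusted p = 0.959). DESeq2 gave Gas6 no adjusted p. The ratio of Pros1 to Gas6 per length was 3.74 in M_KO_5642 but 64.3 and 54.1 in the other M_KO libraries, and 87.5, 34.4 and 74.2 in M_WT.

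Mfge8 (ENSMUSG00000030605, chromosome 7, 79133768 to 79149060, minus strand) was at 41.5, 91.4 and 26.8 CPM in M_KO and 34.6, 37.7 and 45.9 CPM in M_WT. M_KO held both extremes, with M_KO_5645 high and M_KO_5642 low, around a narrow M_WT range. The fitted log2 fold change was 0.43 (SE 0.43, 95% interval -0.59 to 1.45, edgeR adjusted p = 0.769), and it was -0.21 without M_KO_5645. Markers of resident large peritoneal macrophages (9 of 9 measured) summed to 13006, 17600 and 4140 CPM in the M_KO libraries of the same order, and to 13635, 7984 and 10034 CPM in M_WT. Their part in the Mfge8 values was not tested.

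Among class A scavenger receptors, Msr1 (ENSMUSG00000025044, chromosome 8, 39581685 to 39642673, minus strand), which binds modified lipoproteins, was at 1081, 896 and 795 CPM in M_KO and 1109, 1368 and 1203 CPM in M_WT. The gap between the groups was narrow, since M_KO_5944 lay close to M_WT_5643. The log2 fold change was -0.41 (SE 0.18, 95% interval -0.83 to 0.0032), with the smallest edgeR p of the 10 genes but an edgeR adjusted p of 0.523. Msr1 was also lower in F_KO (881 CPM) than in F_WT (1091 CPM), so that all 4 KO libraries lay below all 4 WT libraries, as 2.42% of tested genes did. The macrophage marker list (7 of 7 measured) likewise summed lower in M_KO, to 18258 to 20736 CPM, than in M_WT, to 20912 to 32418 CPM, mostly through Lyz2. Csf1r, of the same list, ran the other way without overlap, at 1823, 2038 and 2097 CPM in M_KO and 1476, 1235 and 1554 CPM in M_WT, and at 1936 CPM in F_KO and 1494 CPM in F_WT. The marker list's sum was 24621 CPM in F_KO and 24709 CPM in F_WT. The dendritic cell marker sums given above were also lower in M_KO, but their lack of overlap rests on Cd209a. The part of both lists in the Msr1 values was not tested.

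Marco (ENSMUSG00000026390, chromosome 1, 120474538 to 120505024, minus strand), a class A receptor for bacteria and particles, was at 1994, 740 and 339 CPM in M_KO and 1912, 1506 and 1881 CPM in M_WT. The M_WT libraries lay close together while those of M_KO spread 5.88-fold, with M_KO_5944 above every M_WT library. Marco had a log2 fold change of -0.79 (SE 0.59, 95% interval -2.18 to 0.61, edgeR adjusted p = 0.687). Without M_KO_5944 it was -1.71 in edgeR (adjusted p = 0.189) and -1.73 in DESeq2, which then called it (adjusted p = 2.69e-04). In that DESeq2 fit 564 genes were called (3.81% of those tested), against 188 with all M libraries. The F libraries had less Marco than most M libraries, 457 CPM in F_KO and 247 CPM in F_WT, with the difference in the other direction.

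Cd36 (ENSMUSG00000002944, chromosome 5, 17781690 to 17888801, minus strand), a class B receptor for oxidised lipoproteins and fatty acids, was at 736, 736 and 926 CPM in M_KO and 750, 662 and 510 CPM in M_WT. M_WT_5643 lay above 2 of the M_KO libraries, so the groups overlapped. Cd36 had a log2 fold change of 0.31 (SE 0.19, 95% interval -0.14 to 0.76, edgeR adjusted p = 0.624).

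Stab1 (ENSMUSG00000042286, chromosome 14, 31139013 to 31168641, minus strand), stabilin-1, a class H receptor that takes up acetylated lipoproteins and phosphatidylserine-bearing cells, was at 145, 112 and 1115 CPM in M_KO and 144, 1932 and 654 CPM in M_WT. Each genotype held low and high libraries, and the lowest M_WT level equalled that of M_KO_5944 within 1 CPM. The M libraries spanned 17.2-fold, the widest range of the 10 genes, and the log2 fold change of -1.01 (SE 1.14, 95% interval -3.71 to 1.70, edgeR adjusted p = 0.806) was 0.18 without M_WT_6258 and -2.83 without M_KO_5642. Nt5dc2, which overlaps Stab1 on the other strand, had at most 674 counts in a library, and Stab1 at least 2188. Endothelial and platelet markers (3 of 6 tested) summed to 3.23, 3.23 and 9.98 CPM in M_KO and 4.87, 7.40 and 2.99 CPM in M_WT. Their part in the Stab1 values was not tested.

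Trem2 (ENSMUSG00000023992, chromosome 17, 48346401 to 48354147, plus strand), a lipid receptor that signals through DAP12, was at 32.6, 27.9 and 75.5 CPM in M_KO and 22.6, 51.1 and 25.1 CPM in M_WT. The 2 highest M libraries, M_KO_5642 and M_WT_6258, were also the 2 highest M libraries in Stab1 and Gas6. Gas6 was higher in F_WT_5638 (14.7 CPM) than in M_WT_6258 (7.67 CPM). The log2 fold change was 0.45 (SE 0.47, 95% interval -0.66 to 1.56, edgeR adjusted p = 0.780), and -0.13 without M_KO_5642.

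**Figure D2:**
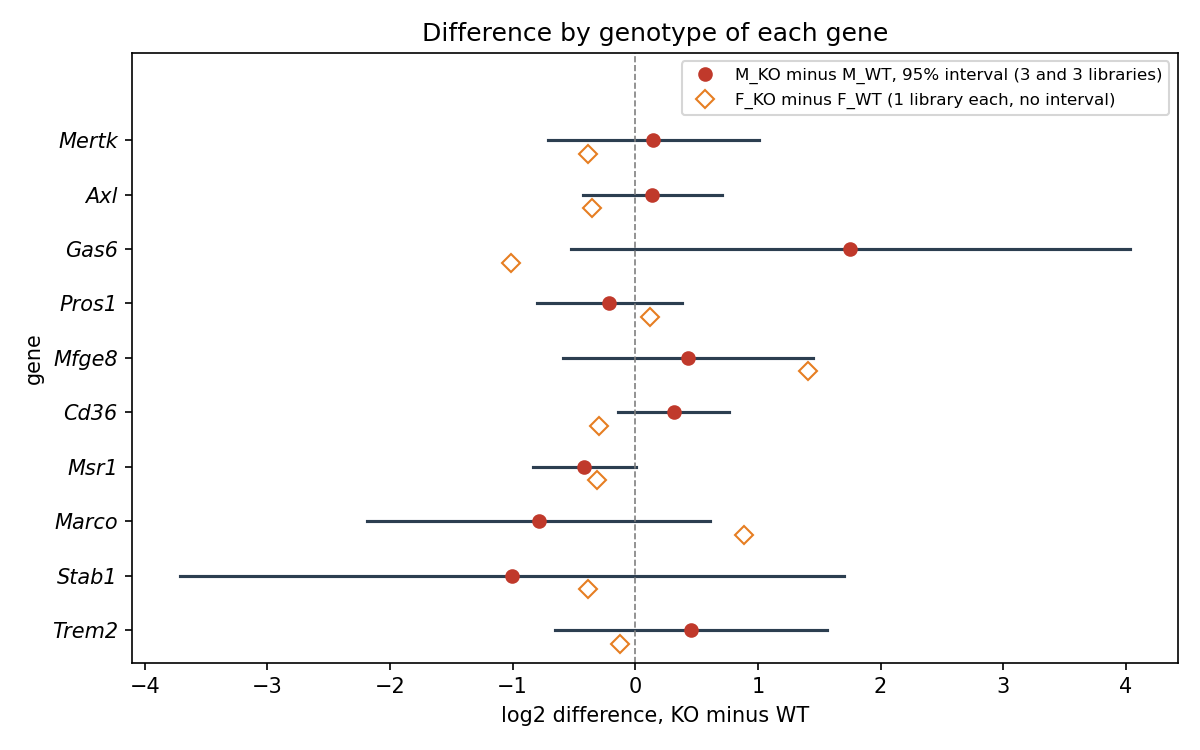
Log2 difference of KO minus WT for each gene. Filled points with lines are M_KO minus M_WT with the 95% interval from edgeR, and open diamonds are F_KO minus F_WT from 1 library each. Every M interval includes 0, and the intervals of Stab1 (-3.71 to 1.70) and Gas6 (-0.53 to 4.03) are the widest.

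Variation within genotype was large for several of these genes. The pooled SD of log2 CPM within M_KO and M_WT was 1.85 for Stab1, 1.36 for Gas6 and 0.92 for Marco, at the 99.9, 99.1 and 96.1 percentiles of the 13646 tested genes. It was 0.19 for Msr1 and 0.24 for Cd36, at the 31.96 and 45.1 percentiles. The median percentile over the 10 genes was 86.9. M_KO_5642 was the highest M library for 3 genes (Gas6, Cd36 and Trem2) and the lowest for 4 (Pros1, Mfge8, Msr1 and Marco). Its mean absolute deviation from the gene means was 0.94 on the log2 scale, against 0.42 to 0.53 in the other M libraries. In the same library, markers of resident large peritoneal macrophages had their lowest sum, 4140 CPM against 7984 CPM or more in the other M libraries. Timd4, a phosphatidylserine receptor of resident macrophages, was at 61.0 CPM there and at 370 to 586 CPM in the other M libraries, and Mrc1, the mannose receptor, at 311 CPM against 56.8 to 111 CPM. F_WT_5638 had 7584 CPM of the resident markers, 194 CPM of Timd4 and 253 CPM of Mrc1. In F_KO_5639 these values were 15108, 373 and 63.4 CPM. The part of resident macrophages in the deviation of M_KO_5642 was not tested.

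**Figure D3:**
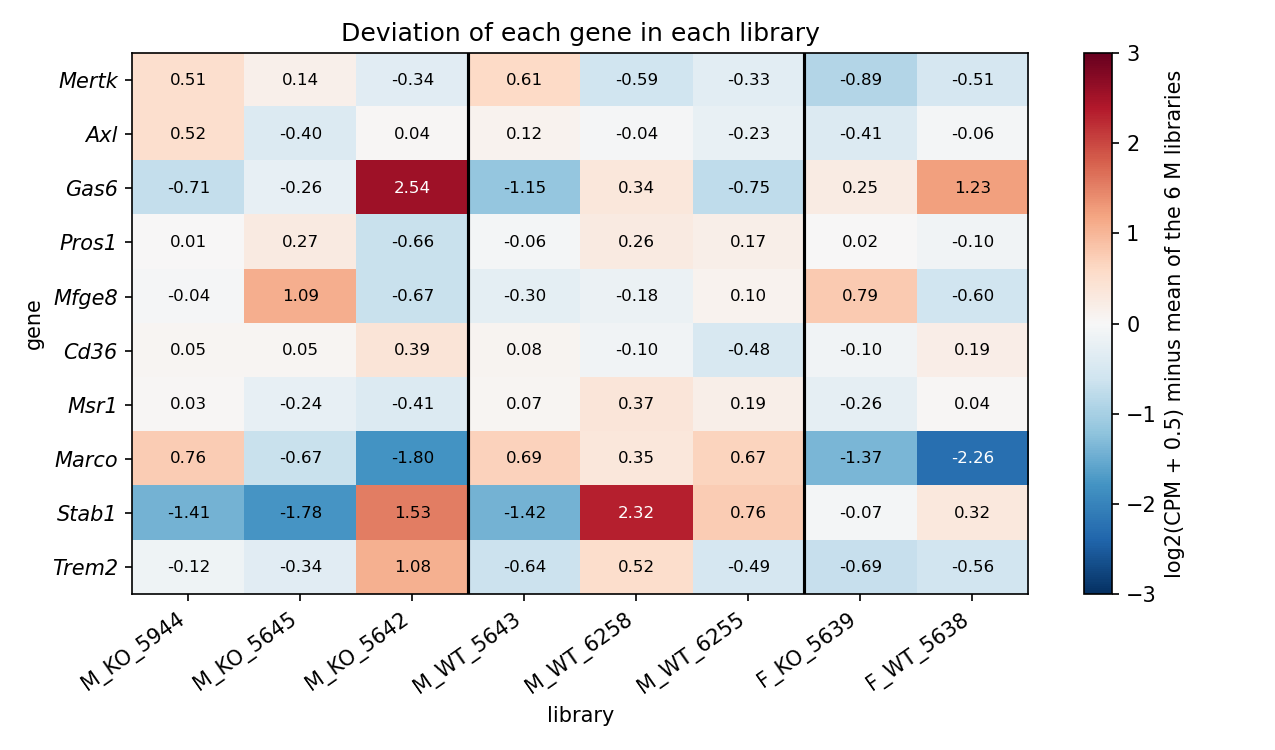
Log2(CPM + 0.5) of each gene in each library minus the mean of the 6 M libraries, with M_KO, M_WT, F_KO and F_WT from left to right. M_KO_5642 has the largest M value for Gas6 (2.54) and the smallest for Marco (-1.80), and Stab1 runs from -1.78 in M_KO_5645 to 2.32 in M_WT_6258.

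The promoters of the 3 genes with the widest range over the M libraries are shown to compare their base composition and motifs. Each window runs from 250 bases before to 50 bases after the gene start (RefSeq, GRCm38.p6), and capitals mark the core GAGGAA of PU.1, the myeloid lineage factor, on either strand.
Stab1 (chr14:31168592-31168891, minus strand): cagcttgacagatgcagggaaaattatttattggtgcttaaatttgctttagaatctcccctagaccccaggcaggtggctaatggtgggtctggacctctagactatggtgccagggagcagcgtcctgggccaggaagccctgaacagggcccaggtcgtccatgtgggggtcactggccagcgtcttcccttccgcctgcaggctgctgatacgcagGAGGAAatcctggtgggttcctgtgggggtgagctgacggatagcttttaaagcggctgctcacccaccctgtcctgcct
Gas6 (chr8:13494486-13494785, minus strand): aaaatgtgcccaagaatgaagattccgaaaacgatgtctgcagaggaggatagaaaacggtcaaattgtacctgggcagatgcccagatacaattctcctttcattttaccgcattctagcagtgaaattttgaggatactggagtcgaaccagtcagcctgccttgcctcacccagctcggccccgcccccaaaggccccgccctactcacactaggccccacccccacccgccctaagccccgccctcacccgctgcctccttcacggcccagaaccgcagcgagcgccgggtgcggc
Marco (chr1:120504975-120505274, minus strand): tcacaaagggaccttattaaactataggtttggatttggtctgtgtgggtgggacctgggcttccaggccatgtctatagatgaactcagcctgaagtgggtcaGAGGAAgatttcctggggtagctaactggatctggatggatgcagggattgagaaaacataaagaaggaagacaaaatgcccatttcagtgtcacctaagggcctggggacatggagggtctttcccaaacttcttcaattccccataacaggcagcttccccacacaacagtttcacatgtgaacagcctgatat
The Stab1 and Marco windows each held 1 PU.1 core and the Gas6 window held 0, where 28.3% of the 32851 promoter windows hold at least 1. AP-1, MAF and E-box motifs were also searched on both strands, spelled TGANTCA (in 7.81% of windows), TGCTGAC for the MAF half-site (4.67%) and CACGTG (7.15%). None was in these 3 windows. CpG counts were 7 in Stab1, 17 in Gas6 and 0 in Marco, against a median of 7 over all windows. Windows of 9 members were matched by symbol, with 0 to 21 CpG, and among the other 6 the PU.1 core was in Axl, Mfge8 and Trem2 and the AP-1 motif in Trem2. A match is a description of the letters in this window.

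The F pair gives values without a replicate check, and its intervals cover counting error only. In F_KO 7 of the 10 genes were lower than in F_WT and 3 higher, and 3 had the sign of the M comparison (Mfge8, Msr1 and Stab1). Mfge8 was at 74.6 CPM in F_KO and 28.0 CPM in F_WT, so that the ratio was 2.66 (exact Clopper-Pearson interval at 95%, 2.43 to 2.92). The ratio of F_KO to F_WT was 1.85 for Marco (interval 1.79 to 1.91) and 0.491 for Gas6 (interval 0.402 to 0.596), which was at 7.21 CPM in F_KO and 14.7 CPM in F_WT. For Trem2, at 21.8 CPM in F_KO and 23.9 CPM in F_WT, the interval of the ratio (0.806 to 1.04) included 1. The remaining ratios were 0.764 for Mertk, 0.784 for Axl, 1.09 for Pros1, 0.814 for Cd36, 0.808 for Msr1 and 0.766 for Stab1. Taken in either direction, these ratios lie within the fold range between libraries of each genotype in M for 7 of the 10 genes. The ranges were 1.81-fold in M_KO and 2.32-fold in M_WT for Mertk, 9.94-fold and 13.4-fold for Stab1, and 10.8-fold and 3.18-fold for Gas6. They were 1.89-fold and 1.28-fold for Axl, 1.92-fold and 1.25-fold for Pros1, 1.26-fold and 1.47-fold for Cd36, and 2.71-fold and 2.26-fold for Trem2. Only the M_KO range held the ratio for Mfge8 (3.41-fold and 1.33-fold), Marco (5.88-fold and 1.27-fold) and Msr1 (1.36-fold and 1.23-fold).

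The wider pathway was described through 7 lists of 95 genes, of which 86 were tested. EdgeR called 0 of them in either direction, DESeq2 called 1 as higher (Cd300a) and 1 as lower (Treml2), and the authors' deposited table calls 2 (Cd300a and Treml2). The median log2 fold change was -0.05, with 37 fitted values higher and 49 lower in M_KO. Libraries did not overlap for 10 genes with M_KO higher and 6 with M_KO lower, against 9.09% and 6.95% of all tested genes.

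Other phosphatidylserine receptors and bridging molecules (17 of 21 tested) had a median log2 fold change of -0.19, with 6 higher and 11 lower. Cd300a, an inhibitory receptor for phosphatidylserine and phosphatidylethanolamine, was at 38.2, 103 and 58.4 CPM in M_KO and 21.9, 27.7 and 28.8 CPM in M_WT. Its libraries did not overlap (log2 fold change 1.34, SE 0.35, edgeR adjusted p = 0.434, DESeq2 adjusted p = 0.0336). The F pair went the other way, at 34.99 CPM in F_KO and 50.01 CPM in F_WT. The DESeq2 call was lost without M_WT_5643, M_WT_6258, M_WT_6255 or M_KO_5645 (DESeq2 adjusted p from 0.127 to 0.249). The C1q chain genes C1qa, C1qb and C1qc, opsonins of dying cells, had no M_KO and M_WT libraries apart and log2 fold changes of -0.34, -0.19 and -0.29. Cd300lb, an activating relative of Cd300a, was at 31.6, 31.5 and 72.4 CPM in M_KO and 13.04, 24.9 and 25.3 CPM in M_WT (log2 fold change 1.09, SE 0.41, edgeR adjusted p = 0.481).

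In the TREM family and DAP12 signalling list (10 of 11 tested, median -0.10, 3 higher and 7 lower), Treml2 was at 1.08, 0.20 and 0.40 CPM in M_KO and 2.66, 2.88 and 2.43 CPM in M_WT. Its libraries did not overlap (log2 fold change -2.26, SE 0.57, edgeR adjusted p = 0.434, DESeq2 adjusted p = 0.0162), and DESeq2 called it without M_KO_5944 but not without any other M library. Treml2 was near the floor in M_KO_5645, where 3 counts make 0.154 CPM. B cells also express Treml2, and the B cell markers (7 of 7 tested) summed to 193 to 593 CPM in M_KO and 128 to 405 CPM in M_WT. Tyrobp, the gene of DAP12, the partner of TREM2, was near constant, at 599, 608 and 620 CPM in M_KO and 639, 620 and 628 CPM in M_WT. Inpp5d, which encodes the phosphatase SHIP1 that restrains this signal, was at 99.6, 167 and 210 CPM in M_KO and 70.1, 77.0 and 96.0 CPM in M_WT (log2 fold change 0.96, SE 0.28, edgeR adjusted p = 0.464, DESeq2 adjusted p = 0.0977).

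The list of nuclear receptors, Maf and lipid efflux genes (13 of 13 tested) had a median log2 fold change of 0.28, with 10 higher and 3 lower, and 2 genes whose libraries did not overlap. Rxrb, a retinoid X receptor, was at 47.6, 54.9 and 54.9 CPM in M_KO and 42.1, 40.1 and 47.1 CPM in M_WT (log2 fold change 0.28, SE 0.12, edgeR adjusted p = 0.537). Nr1h2, which encodes the oxysterol receptor LXR beta, was at 119, 113 and 126 CPM in M_KO and 101, 98.1 and 111 CPM in M_WT (log2 fold change 0.20, SE 0.11, edgeR adjusted p = 0.591). By a narrow gap, the M_KO libraries lay above those of M_WT for both genes, as for 9.09% of all tested genes. Neither was called by edgeR, DESeq2 or the authors' deposited table.

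The other lists likewise held no call by edgeR, DESeq2 or the authors' deposited table. Engulfment and phagosome genes (17 of 18 tested) had a median log2 fold change of -0.04 and a range from -0.32 to 0.46. Vav1, an exchange factor for Rac, lay at the top with 0.46 (edgeR adjusted p = 0.474), and Rubcn, a regulator of LC3-associated phagocytosis, at 0.40 (edgeR adjusted p = 0.547). Other scavenger receptors (11 of 14 tested) had a median of 0.21. Among them Scarf2 (1.02) and Ager (1.30) had M_KO libraries above those of M_WT, as 9.09% of all tested genes did. Ager was at a level near the filter. Regulators and targets of TAM receptors (12 of 12 tested) had 1 higher and 11 lower fitted values, with a median of -0.20. Libraries did not overlap for 0 of them, against 16.0% of all tested genes. Inhibitory receptors and ligands of the do not eat me kind (6 of 6 tested) had a median of 0.09, with 3 higher and 3 lower.

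**Figure D4:**
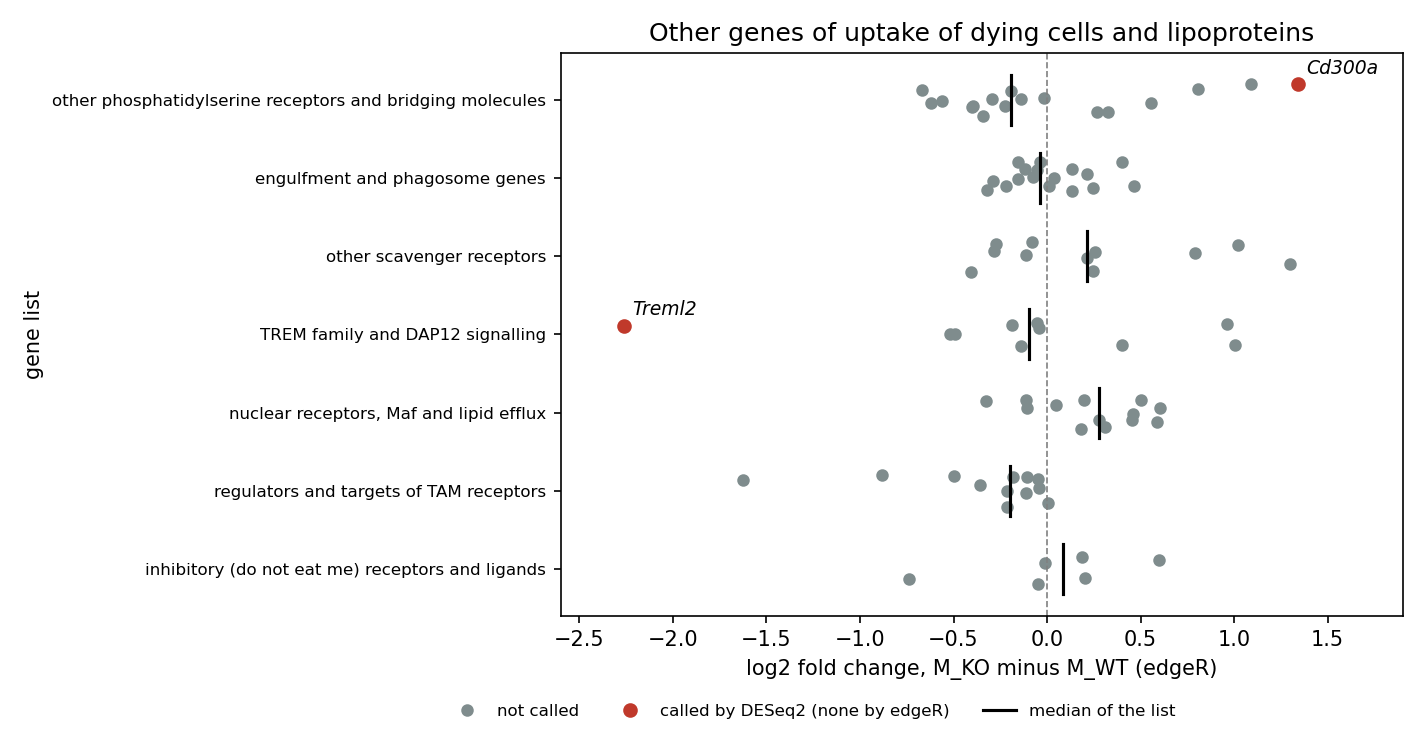
Log2 fold change of M_KO minus M_WT (edgeR) for the tested genes of the 7 pathway lists, 1 point per gene, with a bar at each list's median. Red points were called by DESeq2 (Cd300a and Treml2), edgeR called none, and medians run from -0.20 to 0.28.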

How the data were processed

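RNA of peritoneal macrophages was sequenced in 8 libraries made with a NEBNext Ultra kit, per the labels' protocols. Per the submitters' processing notes, DESeq2 (1.16.1), featureCounts (1.5.0-p3) and HISAT2 (2.0.5) were used with builds mm10 and GRCm38. Strand setting and treatment of multi-mapping reads were not given. The authors deposited whole read counts per gene and FPKM values per gene, and a table of log2 fold changes and p-values of M_KO against M_WT. In all, 16 deposited columns of per-library or mean values in the comparison tables were not used.

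Counts were tested with edgeR 4.0.16 (R 4.3.3): TMM scaling, edgeR's default expression filter on genotype, the quasi-likelihood test on the 6 M libraries (13646 genes) and Benjamini-Hochberg adjustment over all of them, with a threshold of 0.05. Standard errors were derived from the F statistic, and 95% intervals use its degrees of freedom. DESeq2 1.42.0 and limma 3.58.1 served as alternatives. CPM values are scaled over all 8 libraries. A count of 0 allows up to 3 counts, or 0.120 to 0.170 CPM by library. F differences used a prior count of 2, with exact Clopper-Pearson intervals for ratios; intervals and floors cover counting error, as reads carried no stated molecular identifiers. Members and lists were chosen with earlier results of these data known. One listed gene is not reported here and was left out of its list's counts. Named genes were all members, Men1 and, per list, genes called by any of 3 analyses. These were filled up to 2 per list with genes whose libraries did not overlap and whose change was largest. C1q genes, Tyrobp, Timd4, Mrc1, Tyro3 and Elmo2 were added after their values were seen. The tests were tried on simulated data.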

Additional observations from a re-analysis of the deposited data

Results flagged for a closer look

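For several genes of the pathway lists the M_KO and M_WT libraries did not overlap while the difference of the single F pair had the other sign. F_KO minus F_WT was -0.51 on the log2 scale for Cd300a, beside 1.34 in the M comparison, and 0.73 for Tgm2, beside -0.67. For Elmo2 the F difference was -0.49, beside 0.24 in the M comparison. It was -0.055 for Vav1, -0.011 for Rubcn and 0.19 for Tyrobp, whose M differences were narrow in Tyrobp and 0.46 and 0.40 in Vav1 and Rubcn. The counting interval of the F ratio included 1 for Vav1 (0.908 to 1.02) and Rubcn (0.867 to 1.13), so neither showed a direction in F. With 1 library per genotype in F, the difference between the comparisons was not tested.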

How the results depend on the processing

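No paired analysis was possible because the animal numbers in the titles differ between the groups. Every member had at least 49 counts in every library, so the spread between libraries, not depth, set the intervals. In 15 alternatives (a stricter filter or none on low counts, DESeq2, upper-quartile or RLE scaling, limma voom, limma on log2(FPKM + 1) and log2(FPKM + 0.1), all 8 libraries, and leaving out each M library) 0 members were called. DESeq2 refits without each M library, chosen after the data were seen, called Marco without M_KO_5944, where 564 of all genes were called, and 0 members in the other fits, where 67 to 310 genes were. Over all genes, the count of 3 became 188 (95 higher) with DESeq2 on 25425 genes, of which 15545 received an adjusted p. It became 200 (104 higher, 0 members) with DESeq2 on the 13646 genes edgeR tested, a fit also chosen after the data were seen. The count was 16 in edgeR with no filter and 1 over all 8 libraries. Leaving out 1 library moved the edgeR count between 0 (without M_WT_6255) and 21 (without M_WT_5643). Members whose libraries did not overlap numbered 1 to 3 with 1 library left out: Gas6 and Trem2 joined Msr1 without M_WT_6258, Cd36 without M_WT_5643 and Marco without M_KO_5944, where 21.8%, 31.2% and 29.9% of all tested genes did not overlap. The member median of 0.14 moved between -0.10 (without M_KO_5944) and 0.24 (without M_WT_5643). Cd36, Msr1 and Marco kept their direction in all 15 alternatives, and the other 7 members turned their sign in at least 1 fit with fewer samples. The log2 fold change of Mertk moved between -0.087 (without M_WT_6258; -0.073 without M_KO_5944) and 0.61 (without M_WT_5643), Axl between -0.12 (without M_KO_5944) and 0.34, Gas6 between -0.096 (without M_KO_5642) and 2.38, and Pros1 between -0.43 and 0.014 (without M_KO_5642). Mfge8 moved between -0.21 (without M_KO_5645) and 0.75, Stab1 between -2.83 and 0.18 (without M_WT_6258), and Trem2 between -0.13 (without M_KO_5642) and 0.91. F differences stayed within their counting intervals with a prior count of 0.5 or RLE scaling.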

Other observations

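Apoe, which encodes a lipoprotein ligand of TREM2 and was picked after its values were seen, was at 4229, 6052 and 1724 CPM in M_KO and 1955, 1970 and 2051 CPM in M_WT, so that the groups overlapped through M_KO_5642 (log2 fold change 1.0). It was at 4062.0 CPM in F_KO and 394 CPM in F_WT, the widest difference of the F pair among the tested pathway genes. Itgav and Tgm2, an integrin chain that binds MFGE8 and a transglutaminase that acts as an integrin coreceptor, were also chosen after their values were seen. Itgav was at 352, 133 and 388 CPM in M_KO and 426, 512 and 396 CPM in M_WT, with libraries that did not overlap and an edgeR log2 fold change of -0.62. Tgm2 was at 599, 303 and 372 CPM in M_KO and 632, 678 and 709 CPM in M_WT (log2 fold change -0.67). In the F pair Itgav was at 248 CPM in F_KO and 360 CPM in F_WT, and Tgm2 went the other way, at 718 CPM in F_KO and 433 CPM in F_WT. EdgeR called neither.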
